A study of Mus musculus with 12 samples.

Results

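The subject is the response of CUGBP1 S302A knock-in mouse liver to diethylnitrosamine (DEN), read from RNA sequencing as the 3 libraries of DEN-treated knock-in liver against the 3 of untreated knock-in liver, 6 of the 12 libraries deposited. All mice were male C57BL6. The S302A allele changes a serine of CUGBP1, an RNA-binding protein encoded by Celf1, to alanine, and both groups carry it. DEN-treated mice were injected with 50 µg DEN per g body weight at 3 weeks of age, the controls were untreated, and livers were taken 30 to 38 weeks later, at an age of 33 to 41 weeks. The other 6 libraries, from wild-type mice handled in the same manner, served to estimate the spread and to compare the DEN effect between genotypes. The groups are called S302A_Ctrl, S302A_DEN, WT_Ctrl and WT_DEN, with 3 libraries each, and "untreated" and "DEN" replicates below are those of the knock-in. Nothing in the labels ties a library to its own animal, so the p-values reflect the spread among these libraries and no more. Whether tumour or surrounding liver was sampled is not stated in the sources used here.

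DEN is activated by hepatocyte cytochromes P450 to a DNA-alkylating agent. Given to young male mice, it initiates hepatocellular tumours that grow over months. DNA damage activates the transcription factor p53, whose target p21 (Cdkn1a) halts the cell cycle. Hepatocytes also secrete most plasma proteins through the endoplasmic reticulum (ER), and the unfolded protein response raises ER chaperones when folding demand grows. CUGBP1 binds GU-rich elements in RNA and affects splicing, decay and translation, so a changed serine in the protein need not be visible in RNA levels.

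Values are TPM, which express each gene as a share of all transcripts in a library after division by transcript length, and the deposited values have a floor of 1, so a value of 1 means 1 or less and the sequencing depth cannot be read from them. Of 31253 gene symbols, 11411 exceeded 1 TPM in at least 3 of the 6 knock-in libraries and were tested. Tests used limma on log2(TPM + 1) in 1 fit of all 12 libraries, and p-values were adjusted over the 11411 genes with a threshold of 0.05. Hepatocyte markers were abundant throughout: albumin (Alb) stood at 34558, 28323 and 25083 TPM in untreated replicates 1 to 3 and at 26444, 32859 and 33122 TPM in DEN replicates 1 to 3, and the ductal marker Krt19 and the T-cell marker Cd3e did not pass the filter. In bulk liver, fewer cells of a type and less RNA per cell cannot be told apart. The S302A codon is invisible in gene-level values, so the Celf1 level is no test of the genotype. Celf1 (chromosome 2, 90940382 to 91019497, plus strand) differed by 0.34 on the log2 scale after DEN (adjusted p = 0.394), and Psmd10, which encodes gankyrin, by 0.81 (adjusted p = 0.274).

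DEN replicate 3 stood apart from the other 5 knock-in libraries. Across genes, the 5 pairs that include it had Spearman coefficients of 0.872 to 0.907, and the 10 pairs that do not had 0.933 to 0.970. It had 13083 genes above 1 TPM, against 10839 to 11195, and its 20 most abundant genes held 23.8% of the TPM, against 41.2% to 47.6%. In this library 10055 of 11411 genes (88.1%) lay above both other DEN replicates. For most named genes the log2 change is given over all 6 libraries and, after it, without this library.

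Over all 6 libraries 94 genes passed, 65 higher after DEN (0.57% of those tested) and 29 lower (0.254%), while 1949 had an unadjusted p below 0.05. Without DEN replicate 3 there were 160 higher (1.4%) and 159 lower (1.39%), and 86 of the 94 were among them. In all 94 the 3 untreated and 3 DEN libraries did not overlap. Over all tested genes 1921 (16.8%) had every DEN library above every untreated one and 325 (2.85%) every DEN library below. In all, 9077 of the 11411 tested genes (79.5%) had a higher mean log2 value after DEN over 6 libraries, and 5741 (50.3%) without DEN replicate 3, so counts of higher members in a list are to be read against these shares. The median gene stood 0.28 higher on the log2 scale after DEN, and 0.00 higher without DEN replicate 3. Median-of-ratios scaling, which recentres the libraries, brought it to 0.01 and turned the split into 326 higher and 368 lower, so differences below are best read against that shift. The number of calls depended on single libraries: it was 18, 38 and 25 without untreated replicates 1, 2 and 3, 554 without DEN replicate 2, and 47 and 58 without WT_DEN replicates 2 and 3. With the 6 knock-in libraries fitted alone 17 genes passed, and with no filter on low values 4 did. The calls of AB343393, AB343394, Apoa4, Cdkn1a, Col5a2, Cyp2b10, Gas5, Gm12718, Gvin1, Rn45s, Rpph1 and Spp1 held without each of the 12 libraries in turn. Of these, Col5a2, Cyp2b10, Gas5, Gm12718 and Spp1 missed the threshold with the knock-in libraries fitted alone (limma adjusted p 0.0554 to 0.112). With no filter, all of these but Col5a2 and Gvin1 missed it (limma adjusted p 0.0603 to 0.173).

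The cell cycle inhibitor Cdkn1a rose in every DEN library, and so did the growth-restraining gene Btg3. Cdkn1a (chromosome 17, 29090976 to 29100727, plus strand), which encodes the p53-induced cyclin-dependent kinase inhibitor p21, was at the floor of 1 TPM in all 3 untreated libraries and at 16.5, 11.9 and 31.0 TPM in DEN replicates 1 to 3. No DEN library came near the floor, and replicate 3 was the highest. The log2 change was 3.27 ± 0.32 (SE, limma adjusted p = 0.00133), and 2.91 without DEN replicate 3 (adjusted p = 0.000590). Btg3, an antiproliferative gene of the BTG family, stood at 1.53, 1.04 and 2.18 TPM untreated and 9.59, 7.17 and 54.9 TPM after DEN, a log2 change of 2.73 (adjusted p = 0.0350) and of 1.87 without DEN replicate 3 (adjusted p = 0.00275). The groups lay apart, and replicate 3 stood well over both of the other DEN libraries. Tnfrsf12a, the receptor for the cytokine TWEAK, stood at 6.80, 4.83 and 5.38 TPM untreated and 12.7, 28.5 and 76.4 TPM after DEN (2.25, adjusted p = 0.0485; 1.602 without replicate 3, adjusted p = 0.0274).

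Among the other p53 targets no gene passed. Of 21 tested, Cdkn1a included, 20 were higher (79.5% of all genes were), with a median log2 difference of 0.43 beside 0.28 for all genes. Of the 21, 1 was called (Cdkn1a), beside 0.57% of all genes called higher. Leaving out DEN replicate 3, the median was 0.05, with 11 higher, beside 0.00 and 50.3% for all genes. Btg2, another BTG gene, stood at 3.47, 3.25 and 9.59 TPM in DEN replicates 1 to 3 against 1.89, 1 and 2.76 untreated (adjusted p = 0.168; 0.64 without replicate 3, adjusted p = 0.236). The death receptor gene Fas stood at 14.2, 13.1 and 28.0 TPM against 9.97, 12.1 and 10.8 (adjusted p = 0.284; 0.30 without replicate 3, adjusted p = 0.466). In both genes replicates 1 and 2 were just above the untreated libraries and replicate 3 far above. Cell cycle and DNA replication genes gave no call: 14 of 15 were higher (79.5% of all genes were) with a median of 0.58, and 0.05 without DEN replicate 3. The Btg3 and Tnfrsf12a calls ended without 1 or more of S302A_Ctrl replicates 1, 2 and 3, WT_Ctrl replicates 1, 2 and 3 and WT_DEN replicates 1, 2 and 3 (limma adjusted p 0.0503 to 0.176).

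**Figure D1:**
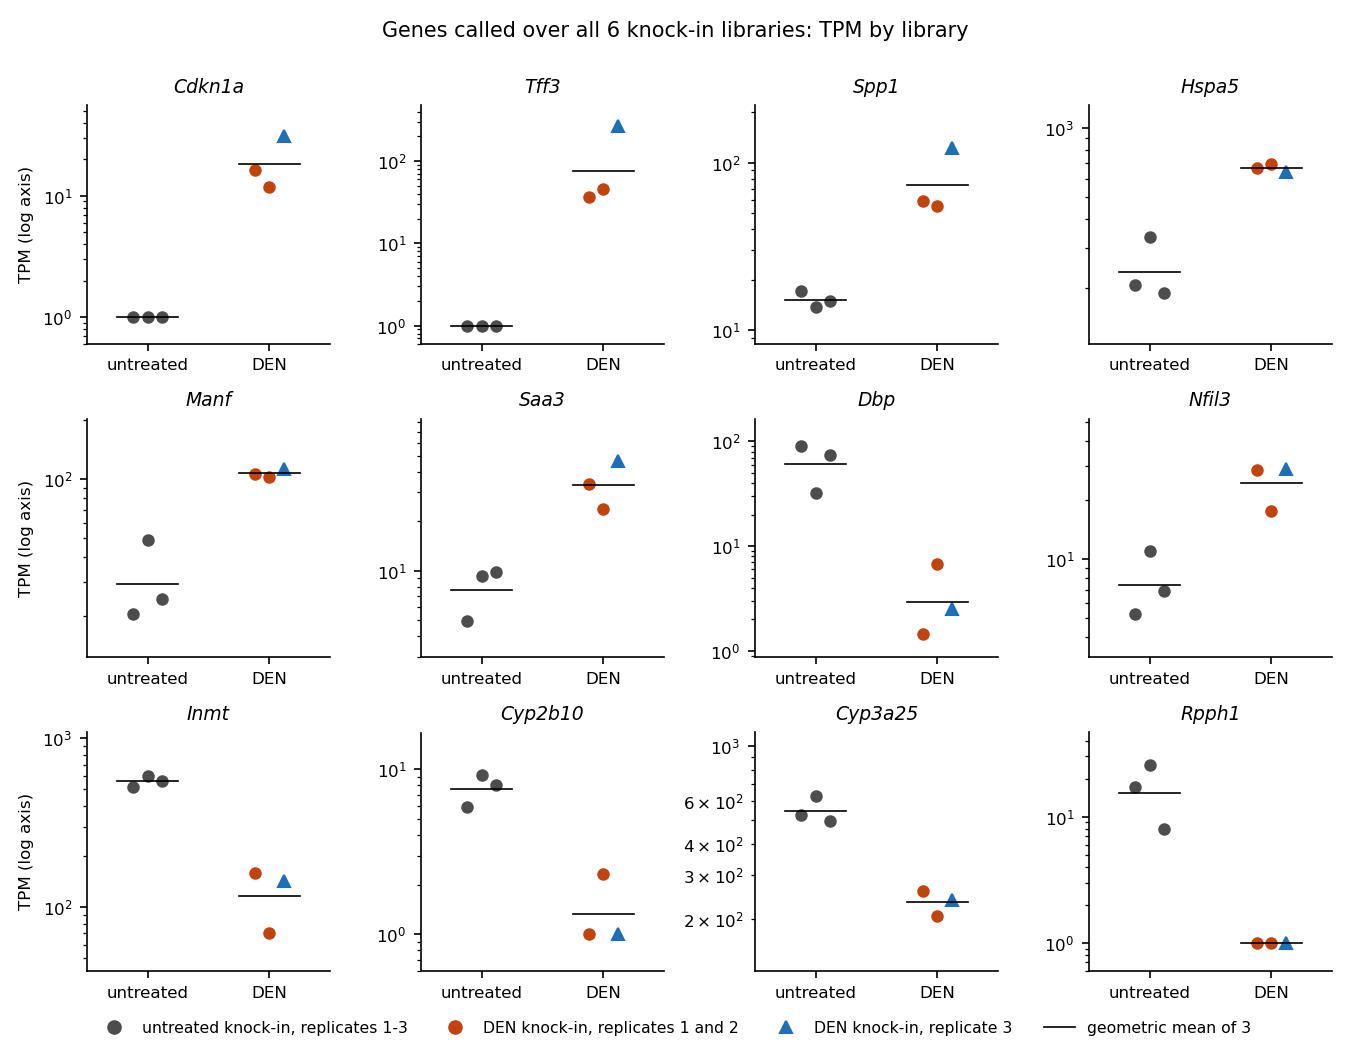
TPM on a log axis for 12 genes that passed over all 6 knock-in libraries, in untreated replicates 1 to 3 and DEN replicates 1 and 2 (circles) and DEN replicate 3 (triangle). Bars mark the geometric mean of the 3 libraries of a group. In every panel the groups do not overlap, and for Hspa5, Manf and Cyp3a25 DEN replicate 3 lies beside replicates 1 and 2.

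Spp1 and Tff3, of the ductular markers, and the collagen gene Col5a2 rose. Spp1 (chromosome 5, 104435118 to 104441050, plus strand), which encodes osteopontin, a secreted matrix protein of bile duct cells, stood at 17.1, 13.7 and 14.9 TPM untreated and 59.0, 55.3 and 122 TPM after DEN, a 5.17-fold rise in mean TPM (3.75-fold without DEN replicate 3). Its log2 change was 2.20 ± 0.32 (adjusted p = 0.00892), and 1.84 without replicate 3 (adjusted p = 0.00617). Tff3 (chromosome 17, 31125306 to 31129646, minus strand), a trefoil peptide of mucous epithelia, was at the floor in the 3 untreated libraries and at 36.5, 46.6 and 264 TPM after DEN. It had the largest rise of the called genes on the log2 scale, 5.29 ± 0.86 (adjusted p = 0.0178), and 4.40 without replicate 3 (adjusted p = 0.0233). All 3 DEN libraries left the floor, replicate 3 by the most.

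Among all genes 79.5% were higher and 0.57% were called higher. Of 10 cholangiocyte and ductular markers tested of 19 listed, 8 were higher and 2 were called, Spp1 and Tff3, with a median of 1.09. Without DEN replicate 3 the median was 0.66 and 4 were called, beside 1.4% of all genes called higher. The further pair were Krt18, a keratin that hepatocytes also make, and Sox9, a biliary transcription factor. Sox9 stood at 1, 1.36 and 1.34 TPM untreated and 4.24, 2.35 and 13.3 TPM after DEN (1.503, adjusted p = 0.0871; 0.91 without replicate 3, adjusted p = 0.0364). Krt18 stood at 112, 149 and 148 TPM untreated and 259.8, 287 and 717 TPM after DEN (1.47, adjusted p = 0.0570; 1.01 without replicate 3, adjusted p = 0.0274). Both were above every untreated library in DEN replicates 1 and 2 too. The markers summed to 269, 319.6 and 309 TPM in untreated replicates 1 to 3 and 590.5, 654 and 2082 TPM in DEN replicates 1 to 3. Krt18, which hepatocytes also make, held 112, 149 and 148 TPM of the untreated sums and 259.8, 287 and 717 TPM of the DEN sums. The sums are thus no measure of ductular cells alone.

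Col5a2, a fibrillar collagen chain of type V collagen, stood at 1, 1.16 and 1 TPM untreated and 3.40, 4.92 and 5.73 TPM after DEN, low levels that did not overlap (1.45 ± 0.18, adjusted p = 0.00244; 1.31 without replicate 3, adjusted p = 0.000720). Of 23 stellate cell and fibrosis genes 22 were higher, beside 79.5% of all genes. Of these 23, 2 were called, Col5a2 among them, beside 0.57% of all genes called higher. The list's median was 0.73 with DEN replicate 3 and 0.17 without it, and in that library all 23 lay above both other DEN libraries, beside 88.1% of all genes. Tbx3, a T-box transcription factor, stood at 4.42, 5.25 and 6.07 TPM untreated and 10.6, 12.4 and 20.8 TPM after DEN (1.27, adjusted p = 0.0499; 1.004 without replicate 3, adjusted p = 0.0300). The Tff3 and Tbx3 calls ended without 1 or more of S302A_Ctrl replicates 1, 2 and 3, WT_Ctrl replicates 1, 2 and 3 and WT_DEN replicates 1, 2 and 3 (limma adjusted p 0.0526 to 0.220).

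Among all genes 79.5% were higher and 0.57% were called higher. For liver tumour and fetal liver genes, 14 of 28 listed passed the filter, 13 were higher and 2 were called, Tff3 and Tbx3. Their median was 1.17, and 0.42 without DEN replicate 3. Lcn2, the secreted siderophore-binding protein lipocalin 2, stood at 1.98, 7.20 and 7.11 TPM untreated and 78.2, 28.3 and 404 TPM after DEN, with no overlap between the groups, a difference that did not pass (4.07, adjusted p = 0.0564; 3.05 without replicate 3, adjusted p = 0.0768). Scd2, a fatty acid desaturase, was at the floor in untreated liver and at 3.78, 2.29 and 105 TPM after DEN (adjusted p = 0.211; 0.99 without replicate 3, adjusted p = 0.218). The lower DEN libraries of Scd2 were only a few TPM above the floor.

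The ER folding genes Hspa5, Hyou1, Manf, Dnajb11 and Creld2 rose, and in the first 4 of them the 3 DEN replicates lay close together. Hspa5 (chromosome 2, 34771970 to 34777547, plus strand), which encodes the main ER chaperone BiP, stood at 206, 333 and 191 TPM untreated and 667, 693 and 643 TPM after DEN. The log2 change was 1.496 ± 0.29 (adjusted p = 0.0339), and 1.52 without replicate 3 (adjusted p = 0.0292). Hyou1, an ER chaperone of the HSP70 group, stood at 24.4, 37.3 and 20.6 TPM untreated and 77.8, 79.9 and 80.1 TPM after DEN (1.54, adjusted p = 0.0340; 1.53 without replicate 3, adjusted p = 0.0318). The 3 DEN libraries of Hyou1 had an SD of 1.25 TPM around a mean of 79.3. Manf, a factor that ER stress induces, stood at 20.5, 48.8 and 24.4 TPM untreated and 106, 103 and 113 TPM after DEN (1.84, adjusted p = 0.0268; 1.81 without replicate 3, adjusted p = 0.0300). In these genes untreated replicate 2 was the highest of the untreated libraries and still below every DEN library. Dnajb11, an ER co-chaperone of BiP, stood at 32.0, 39.9 and 29.5 TPM untreated and 77.6, 86.2 and 75.7 TPM after DEN (1.22, adjusted p = 0.0290; 1.26 without replicate 3, adjusted p = 0.0174). Creld2 (chromosome 15, 88819646 to 88826683, plus strand), an ER stress-induced protein, stood at 12.4, 23.9 and 13.3 TPM untreated and 76.2, 96.1 and 52.4 TPM after DEN (2.13, adjusted p = 0.0345; 2.36 without replicate 3, adjusted p = 0.0226).

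Among all genes 79.5% were higher, 0.57% were called higher and 16.8% had every DEN library above every untreated one. Of 27 unfolded protein response genes, all tested, 26 were higher, 5 were called and 19 had every DEN library above every untreated one. Their median was 0.92 with DEN replicate 3 and 0.92 without it, when 12 were called, beside 1.4% of all genes called higher. In DEN replicate 3 14 of the 27 lay above both other DEN libraries and 8 below both. Among all 11411 genes 88.1% lay above both and 622 below both. The list summed to 1847, 2243 and 1627 TPM in untreated replicates 1 to 3 and 3766, 3914 and 3878 TPM in DEN replicates 1 to 3. In wild type the list's median was 0.13, and no member's DEN effect passed the test of a genotype difference over 6 libraries. These 5 calls ended without 1 or more of S302A_Ctrl replicates 1, 2 and 3, S302A_DEN replicate 1 and WT_DEN replicate 2 (limma adjusted p 0.0562 to 0.173). After median-of-ratios scaling the differences of Hspa5, Creld2 and Dnajb11 were 1.18, 1.83 and 0.92 with adjusted p of 0.0565, 0.0578 and 0.0811.

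The promoters of Hspa5 and Creld2 show a sequence that some genes of this list share. The ER stress response element (ERSE), spelled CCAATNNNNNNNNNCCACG and searched on both strands, binds the factors that act in this response. It was found in 9 of 24 genes of the list with a promoter window (37.5%), against 0.119% of the 32851 windows of the same length searched. These windows run from 250 bases before to 50 after a start and do not cover every chromosome. The 9 were Calr, Canx, Creld2, Derl3, Dnajc3, Hsp90b1, Hspa5, Pdia6 and Syvn1. Of the called genes of the list, Hspa5 and Creld2 were thus among the 9 and Dnajb11 was not. Hyou1 and Manf had no promoter window. Their median log2 difference was 1.03, with all 9 higher, and that of the 15 without the element was 0.67, with 14 higher. On leaving out DEN replicate 3 these medians were 1.00 and 0.37, a description with no test. Both windows are printed 5′ to 3′ from RefSeq on GRCm38.p6, with the ERSE in capitals; in Hspa5 it begins at position -65 from the start site, and in Creld2 it lies on the opposite strand at -126.
Hspa5 (chr2:34771840-34772139, plus strand): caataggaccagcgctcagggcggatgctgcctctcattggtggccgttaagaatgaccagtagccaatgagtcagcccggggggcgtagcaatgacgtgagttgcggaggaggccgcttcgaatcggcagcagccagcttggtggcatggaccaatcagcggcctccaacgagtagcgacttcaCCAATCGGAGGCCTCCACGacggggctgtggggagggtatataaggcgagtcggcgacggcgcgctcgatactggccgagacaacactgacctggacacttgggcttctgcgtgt
Creld2 (chr15:88819396-88819695, plus strand): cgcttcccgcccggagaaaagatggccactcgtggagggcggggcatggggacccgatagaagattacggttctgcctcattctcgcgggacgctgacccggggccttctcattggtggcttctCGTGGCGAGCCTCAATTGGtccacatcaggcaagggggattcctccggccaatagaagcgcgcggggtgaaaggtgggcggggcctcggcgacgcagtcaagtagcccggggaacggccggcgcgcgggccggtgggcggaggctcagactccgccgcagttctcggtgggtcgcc

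Acute phase genes, which encode plasma proteins that the liver secretes in inflammation, gave 2 rises, Saa3 and Lrg1, and C6 rose beside them. Saa3, a serum amyloid A gene, stood at 4.96, 9.28 and 9.91 TPM untreated and 33.7, 23.9 and 46.6 TPM after DEN (1.98 ± 0.30, adjusted p = 0.0122; 1.75 without replicate 3, adjusted p = 0.0128). Lrg1, a leucine-rich plasma glycoprotein, stood at 180.2, 158 and 200.4 TPM untreated and 513, 439 and 344 TPM after DEN (1.25, adjusted p = 0.0248; 1.40 without replicate 3, adjusted p = 0.00592). C6, a component of the complement membrane attack complex, stood at 96.2, 100.3 and 91.5 TPM untreated and 263, 239 and 138 TPM after DEN (1.09, adjusted p = 0.0489; 1.38 without replicate 3, adjusted p = 0.000720). In Lrg1 and C6 DEN replicate 3 was the lowest DEN library and still above all untreated ones. Saa2 stood at 6.85, 23.3 and 25.7 TPM untreated and 995, 314 and 139 TPM after DEN, a log2 difference of 4.36 that missed the threshold (adjusted p = 0.0570) and passed without DEN replicate 3 (5.03, adjusted p = 0.0365). Saa1 stood at 42.8, 76.2 and 119 TPM untreated and 1647, 683 and 301 TPM after DEN (3.24, adjusted p = 0.0871; 3.84 without replicate 3, adjusted p = 0.0495). Serum amyloid genes are near-identical copies, so their single values are uncertain.

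Of 30 acute phase genes 28 were higher (79.5% of all genes were), with a median of 0.60 and 2 calls (0.57% of all genes were called higher). With DEN replicate 3 left out, 29 were higher (50.3% of all genes were), with a median of 0.77 and 9 calls (1.4% of all genes were called higher). DEN replicate 3 lay below both other DEN libraries in 19 of the 30, beside 622 of all 11411 genes. Il1r1, the receptor for interleukin 1, which induces acute phase genes, stood at 6.15, 7.70 and 5.32 TPM untreated and 26.4, 34.2 and 18.7 TPM after DEN (1.86, adjusted p = 0.0627; 2.08 without replicate 3, adjusted p = 0.0407). Of 38 complement and coagulation genes 30 were higher, a share near the 79.5% of all genes. C6 was the only one of the 38 called, beside 0.57% of all genes called higher. The list's median of 0.14 turned to -0.17, with 11 higher, under median-of-ratios scaling. The Saa3, Lrg1 and C6 calls ended without 1 or more of S302A_Ctrl replicates 1, 2 and 3, S302A_DEN replicate 1, WT_Ctrl replicates 1, 2 and 3 and WT_DEN replicates 1, 2 and 3 (limma adjusted p 0.0645 to 0.202), and those of Lrg1 and C6 under median-of-ratios scaling (adjusted p of 0.140 and 0.251).

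Interferon response genes stood highest in DEN replicate 3, and Gvin1 was the one that passed. Of 33 tested, 33 were higher, beside 79.5% of all genes, with a median of 1.02 beside 0.28 for all genes. Of the 33, 1 was called, beside 0.57% of all genes called higher. The median without DEN replicate 3 was 0.30, and in that library all 33 lay above both other DEN libraries, beside 88.1% of all genes. Gvin1 (chromosome 7, 106156556 to 106215326, minus strand), a very large interferon-inducible GTPase, stood at 1.16, 1 and 1.27 TPM untreated and 6.44, 5.93 and 6.83 TPM after DEN, close together in the 3 DEN libraries (1.79 ± 0.19, adjusted p = 0.00133; 1.75 without replicate 3, adjusted p = 0.000590). Ifi27l2b, a member of the interferon-inducible Ifi27 family, stood at 1.51, 3.65 and 1.85 TPM untreated and 21.2, 22.5 and 184 TPM after DEN (3.83, adjusted p = 0.0345; 2.83 without replicate 3, adjusted p = 0.0268). Stat2 and Irf9 are parts of an interferon-activated transcription complex. Stat2 stood at 14.6, 16.0 and 12.5 TPM untreated and 31.9, 26.1 and 32.8 TPM after DEN (1.02, adjusted p = 0.0940; 0.97 without replicate 3, adjusted p = 0.0957). Irf9 stood at 8.44, 9.74 and 7.48 TPM untreated and 15.8, 13.4 and 23.6 TPM after DEN (0.93, adjusted p = 0.101; 0.71 without replicate 3, adjusted p = 0.0883). Neither passed over 6 libraries, though the groups did not overlap. The Ifi27l2b call ended without any 1 of S302A_Ctrl replicates 1, 2 and 3, WT_Ctrl replicate 1 and WT_DEN replicate 3 (limma adjusted p 0.0511 to 0.171).

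Markers of immune cells moved with DEN replicate 3. All 17 macrophage and Kupffer cell markers tested were higher, beside 79.5% of all genes, with a median of 0.53 and no call; without that library 6 were higher and the median was -0.05. They summed to 192, 193 and 319 TPM in untreated replicates 1 to 3 and 344, 140.4 and 1096 TPM in DEN replicates 1 to 3. The class II genes, which present antigen, summed to 104, 122 and 186 TPM untreated and 237, 88.7 and 1258 TPM after DEN, with a median difference of 1.02 that was 0.10 without DEN replicate 3. H2-Aa alone stood at 23.8, 32.9 and 41.9 TPM untreated and 68.0, 25.5 and 375 TPM after DEN. In both sums DEN replicate 2 was below the untreated libraries and replicate 3 far above. The Kupffer cell lectin Clec4f, at 19.9, 24.9 and 36.6 TPM untreated and 35.4, 13.7 and 38.9 TPM after DEN, overlapped between the groups. Of 26 lymphocyte markers 4 passed the filter, among them Ptprc, the pan-leukocyte antigen CD45, at 1.49, 1 and 2.51 TPM untreated and 1.48, 1 and 11.8 after DEN. The part of these cells in the interferon and matrix values was not tested.

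**Figure D2:**
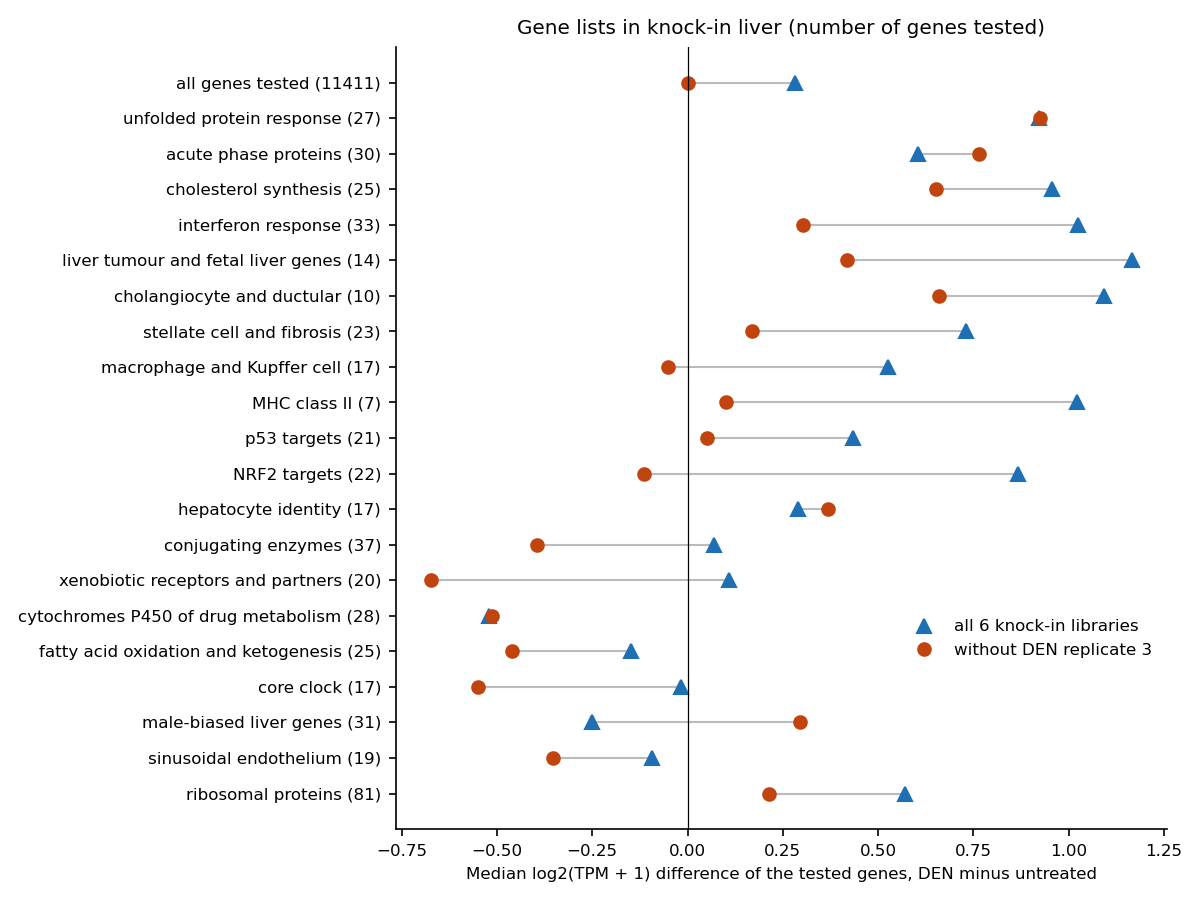
Median log2(TPM + 1) difference, DEN minus untreated, over the tested genes of each list (number of genes beside the name), with all 6 knock-in libraries (triangles) and without DEN replicate 3 (circles). The unfolded protein response stands at 0.92 both ways, whereas the NRF2 targets move from 0.87 to -0.12 and the male-biased genes from -0.25 to 0.30.

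Among cytochromes P450 of drug metabolism Cyp2b10, Cyp3a25 and Cyp2c44 fell. Cyp2b10 (chromosome 7, 25897620 to 25926624, plus strand), the classic target of the xenobiotic receptor CAR, stood at 5.88, 9.30 and 8.02 TPM untreated and 1, 2.33 and 1 TPM after DEN, with replicates 1 and 3 at the floor (-1.86 ± 0.27, adjusted p = 0.00908; -1.74 without replicate 3, adjusted p = 0.0102). Cyp3a25 (chromosome 5, 145977194 to 146009618, minus strand), an abundant cytochrome P450, stood at 524, 627 and 497 TPM untreated and 259, 206 and 238 TPM after DEN, a 2.34-fold lower mean (-1.22, adjusted p = 0.0166; -1.24 without replicate 3, adjusted p = 0.00894). Cyp2c44 stood at 393, 254 and 293 TPM untreated and 114, 121 and 128 TPM after DEN (-1.35, adjusted p = 0.0320; -1.39 without replicate 3, adjusted p = 0.0235). In both, the 3 DEN libraries lay within a narrow range under all untreated ones. These were the 3 calls among 28 cytochromes of drug metabolism tested of 36 listed, beside 0.254% of all genes called lower. Of the 28, 19 were lower and, beside 2.85% of all genes, 11 had every DEN library below every untreated one. Their median was -0.52, and -0.51 without DEN replicate 3. Copies of the Cyp2b, Cyp2c, Cyp3a and Cyp2a families are similar in sequence, so single members are uncertain.

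Cyp3a11 (chromosome 5, 145854426 to 145879964, minus strand), the main target of the receptor PXR, stood at 3688, 2355 and 2740.3 TPM untreated and 190.1, 274 and 1561 TPM after DEN. All 3 DEN libraries were below the untreated ones, but replicates 1 and 2 much further than replicate 3. The difference was -2.73 over 6 libraries (adjusted p = 0.0527) and -3.65 without replicate 3 (adjusted p = 0.000590), a 12.6-fold lower mean TPM. Cyp2c54 stood at 134, 237 and 128 TPM untreated and 50.3, 101 and 34.3 TPM after DEN (-1.49, adjusted p = 0.0570; -1.15 without replicate 3, adjusted p = 0.0674). Cyp2c29, an abundant pericentral cytochrome, stood at 842, 1535 and 704 TPM untreated and 394, 559 and 234 TPM after DEN (-1.38, adjusted p = 0.0732; -1.05 without replicate 3, adjusted p = 0.0943). Both were lower in every DEN library and missed the threshold over 6 libraries.

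Carboxylesterases, which hydrolyse ester drugs and lipids, fell too, in all 3 named members. Ces1f stood at 300.2, 255 and 259.7 TPM untreated and 129.9, 68.6 and 78.8 TPM after DEN (-1.596, adjusted p = 0.0163; -1.51 without replicate 3, adjusted p = 0.0160). Ces1e stood at 157, 264 and 139.8 TPM untreated and 77.9, 56.1 and 26.8 TPM after DEN (-1.85, adjusted p = 0.0468; -1.43 without replicate 3, adjusted p = 0.0472). Ces2a stood at 254, 209 and 192 TPM untreated and 120.1, 87.2 and 85.6 TPM after DEN (-1.16, adjusted p = 0.0367; -1.08 without replicate 3, adjusted p = 0.0328). They were the 3 calls among 20 xenobiotic receptors and partner enzymes, beside 0.254% of all genes called lower. That list's median was 0.11, with 12 higher, but -0.20 under median-of-ratios scaling. Without DEN replicate 3 its median was -0.67, with 18 lower and 5 called, beside 1.39% of all genes called lower. The glucuronosyltransferase Ugt2b5 stood at 921, 668 and 845 TPM untreated and 449, 392 and 367 TPM after DEN (-1.001, adjusted p = 0.0309; -0.94 without replicate 3, adjusted p = 0.0169). The sulfotransferase Sult1c2 stood at 5.59, 7.84 and 4.99 TPM untreated and 2.03, 1.94 and 2.21 TPM after DEN (-1.20, adjusted p = 0.0489; -1.24 without replicate 3, adjusted p = 0.0281). Of 37 conjugating enzymes 17 were lower over 6 libraries, and 29 without DEN replicate 3, with 7 calls (1.39% of all genes were called lower). Their median of 0.07 turned to -0.25 under median-of-ratios scaling. Except that of Cyp2b10, the calls named for cytochromes, esterases and conjugating enzymes ended without 1 or more of S302A_Ctrl replicates 1, 2 and 3, S302A_DEN replicate 1, WT_Ctrl replicates 2 and 3 and WT_DEN replicates 1, 2 and 3 (limma adjusted p 0.0501 to 0.195).

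Other liver enzymes fell with them. Inmt (chromosome 6, 55170626 to 55175043, minus strand), a methyltransferase of small amines, stood at 514, 602 and 557 TPM untreated and 161, 70.0 and 144 TPM after DEN (-2.23 ± 0.37, adjusted p = 0.0178; -2.38 without replicate 3, adjusted p = 0.0156). Hsd17b6, a steroid dehydrogenase, stood at 291, 117 and 149.7 TPM untreated and 27.3, 83.4 and 30.7 TPM after DEN (-2.03, adjusted p = 0.0453; -1.82 without replicate 3, adjusted p = 0.0633). Upp2, a liver uridine phosphorylase, stood at 222, 115 and 181 TPM untreated and 27.8, 47.0 and 22.5 TPM after DEN (-2.40, adjusted p = 0.0367; -2.17 without replicate 3, adjusted p = 0.0574). The groups lay apart in all 3 genes. The calls of Hsd17b6 and Upp2 did not hold without DEN replicate 3. The 3 calls ended without 1 or more of S302A_Ctrl replicates 1, 2 and 3, S302A_DEN replicates 1 and 3, WT_Ctrl replicates 1, 2 and 3 and WT_DEN replicates 1, 2 and 3 (limma adjusted p 0.0523 to 0.207).

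The lipid genes Apoa4 and Sqle rose. Apoa4 (chromosome 9, 46240696 to 46243459, plus strand), an apolipoprotein of triglyceride-rich particles, stood at 68.0, 135 and 164 TPM untreated and 1337, 1486 and 619 TPM after DEN (3.21 ± 0.37, adjusted p = 0.00135; 3.61 without replicate 3, adjusted p = 0.000590). DEN replicate 3 was the lowest DEN library and still far above the untreated ones. Fgf21, a hormone that the liver secretes in fasting, stood at 1.54, 2.51 and 2.09 TPM untreated and 13.3, 5.84 and 73.0 TPM after DEN (2.68, adjusted p = 0.0732; 1.71 without replicate 3, adjusted p = 0.0465). The list of apolipoproteins and targets of the transcription factor CREBH as a whole had a median of 0.13 (-0.19 under median-of-ratios scaling), with 9 of 17 higher. Sqle, squalene epoxidase of cholesterol synthesis, stood at 5.67, 18.4 and 7.26 TPM untreated and 52.1, 32.7 and 96.3 TPM after DEN (2.45, adjusted p = 0.0345; 2.05 without replicate 3, adjusted p = 0.0487). Of 25 cholesterol synthesis genes 24 were higher, beside 79.5% of all genes, with a median of 0.96. Sqle was the only one called, beside 0.57% of all genes called higher. Only 4 of the 25 had every DEN library above every untreated one, beside 16.8% of all genes. The list summed to 972, 1496 and 855 TPM in untreated replicates 1 to 3 and 2114, 1228 and 2988 TPM in DEN replicates 1 to 3, so the groups overlapped. Without DEN replicate 3 the median was 0.65, with 22 higher.

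Acnat2, an acyltransferase that joins fatty acids to amino acids, stood at 1.52, 24.3 and 3.70 TPM untreated and 37.4, 72.6 and 129 TPM after DEN (3.42, adjusted p = 0.0486; 2.99 without replicate 3, adjusted p = 0.0764). Untreated replicate 2 was far above the other untreated libraries. Pfkfb1, the liver enzyme that sets fructose 2,6-bisphosphate and thereby glycolysis, stood at 5.07, 13.7 and 8.54 TPM untreated and 25.7, 31.9 and 43.6 TPM after DEN (1.84, adjusted p = 0.0232; 1.65 without replicate 3, adjusted p = 0.0252). Ldha, lactate dehydrogenase, stood at 302.4, 291 and 251 TPM untreated and 490.2, 439 and 593 TPM after DEN and passed without DEN replicate 3 (0.72, adjusted p = 0.0421; 0.0627 with it). Genes of fatty acid and triglyceride synthesis gave no call, with a median of 0.09 that turned to -0.21 under median-of-ratios scaling. The Sqle, Acnat2 and Pfkfb1 calls ended without 1 or more of S302A_Ctrl replicates 1 and 3, S302A_DEN replicates 1 and 3, WT_Ctrl replicates 1 and 2 and WT_DEN replicates 1, 2 and 3 (limma adjusted p 0.0540 to 0.211).

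Fatty acid oxidation genes stood lower in DEN replicates 1 and 2. Cyp4a10, a fatty acid omega-hydroxylase induced through PPARα, stood at 73.8, 124 and 46.3 TPM untreated and 1.88, 4.09 and 41.6 TPM after DEN. Its near-identical relative Cyp4a14 stood at 50.1, 78.9 and 22.6 TPM untreated and 1, 1 and 41.8 TPM after DEN. DEN replicate 3 of Cyp4a14 fell inside the untreated range, and of Cyp4a10 just under it. Without that library the differences were -4.31 (adjusted p = 0.000590) and -4.52 (adjusted p = 0.000904); over 6 libraries the adjusted p were 0.0634 and 0.137. Acaa1b, a peroxisomal thiolase, stood at 521, 777 and 644 TPM untreated and 241, 151 and 701 TPM after DEN (-1.11, adjusted p = 0.220; -1.74 without replicate 3, adjusted p = 0.00561). Of 25 genes of fatty acid oxidation and ketogenesis 21 were lower over 6 libraries, with a median of -0.15 and no call. In the 5 libraries without DEN replicate 3, 24 were lower, with a median of -0.46 and 7 calls (1.39% of all genes were called lower). In wild type the median was 0.45, and no member's DEN effect passed the test of a genotype difference over 6 libraries.

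Genes of the circadian clock differed in opposite directions. Dbp (chromosome 7, 45705088 to 45710203, plus strand), a transcription factor driven by the clock, stood at 90.9, 32.3 and 74.7 TPM untreated and 1.45, 6.76 and 2.50 TPM after DEN (-3.92 ± 0.73, adjusted p = 0.0294; -3.82 without replicate 3, adjusted p = 0.0418). Nfil3, a repressor that binds the same sites as Dbp, stood at 5.27, 10.97 and 6.93 TPM untreated and 28.5, 17.6 and 28.8 TPM after DEN (1.59, adjusted p = 0.0276; 1.48 without replicate 3, adjusted p = 0.0276). Arntl, which encodes the core activator BMAL1, stood at 1, 2.20 and 1 TPM untreated and 12.3, 4.83 and 15.6 TPM after DEN (2.22, adjusted p = 0.0446; 1.91 without replicate 3, adjusted p = 0.0611). Dbp fell while Nfil3 and Arntl rose, each with no overlap between the groups. Nr1d1, Nr1d2 and Per3, repressor arms of the clock, stood lower in every DEN library without passing. Nr1d1 stood at 59.9, 44.8 and 51.8 TPM untreated and 16.6, 30.1 and 5.70 TPM after DEN (-1.78, adjusted p = 0.178; -1.18 without replicate 3, adjusted p = 0.326). Per3 stood at 6.33, 3.45 and 6.84 TPM untreated and 1, 1.05 and 2.19 TPM after DEN (-1.43, adjusted p = 0.165; -1.65 without replicate 3, adjusted p = 0.118). Of 17 core clock genes 5 had every DEN library below every untreated one and 1 every one above, beside 2.85% and 16.8% of all genes. The labels give no hour of collection, so the clock phase and DEN cannot be told apart. That limit also covers Upp2, given above with the enzymes and counted here among clock genes too. The Dbp, Nfil3 and Arntl calls ended without 1 or more of S302A_Ctrl replicates 1, 2 and 3, S302A_DEN replicates 1 and 3, WT_Ctrl replicate 1 and WT_DEN replicates 1, 2 and 3 (limma adjusted p 0.0523 to 0.194).

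The D-box, TTATGTAA, is the site that Dbp activates and Nfil3 represses. Per gene, it was found in 1.11% of all genes with a promoter window searched, in 1 of 12 core clock genes, Per3, and in 0 of 14 clock output genes. In Per3 it occurs at -205 and -158 from the start site. The Per3 window from RefSeq on GRCm38.p6 is printed 5′ to 3′ on its own strand, with the D-boxes in capitals. The match is a description and no test of binding. Any part of Dbp in the Per3 values was not tested.
Per3 (chr4:151044616-151044915, minus strand): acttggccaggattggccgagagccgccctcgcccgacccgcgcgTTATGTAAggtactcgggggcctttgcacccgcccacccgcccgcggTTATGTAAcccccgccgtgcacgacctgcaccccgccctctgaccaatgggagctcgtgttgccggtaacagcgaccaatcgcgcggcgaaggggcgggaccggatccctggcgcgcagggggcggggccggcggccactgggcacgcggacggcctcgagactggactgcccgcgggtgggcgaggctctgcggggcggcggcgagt

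The structural RNAs Rpph1, Rmrp and Rn45s fell. Rpph1 (chromosome 14, 50807449 to 50807767, minus strand), the RNA of RNase P, stood at 17.2, 25.7 and 8.03 TPM in untreated replicates 1 to 3 and at the floor in all 3 DEN libraries (-3.03 ± 0.34, adjusted p = 0.00133; -3.03 without replicate 3, adjusted p = 0.00275). Rmrp, the related RNA of RNase MRP, stood at 27.3, 16.1 and 3.58 TPM untreated and 1.52, 1 and 1 TPM after DEN (-2.59, adjusted p = 0.0257; -2.54 without replicate 3, adjusted p = 0.0346). Rn45s, the ribosomal RNA precursor, stood at 2180.4, 2851 and 1231 TPM untreated and 271, 341 and 335 TPM after DEN (-2.65, adjusted p = 0.00645; -2.69 without replicate 3, adjusted p = 0.0108). The groups did not overlap. Of 72 structural RNAs tested, 45 were lower with a median of -0.10 and 3 called, those named, beside 0.254% of all genes called lower. How much of such RNA enters a library depends on its preparation, and its part in these values was not tested. Gas5, a long RNA that hosts small nucleolar RNAs, went the other way, at 95.8, 83.5 and 95.1 TPM untreated and 239, 219 and 339.5 TPM after DEN (1.505 ± 0.20, adjusted p = 0.00460; 1.32 without replicate 3, adjusted p = 0.00131). The Rmrp call ended without S302A_Ctrl replicates 1 and 2 (limma adjusted p 0.0827 to 0.1003).

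Further called genes carry clone names with no stated function. AK220016 stood at 308, 225 and 203 TPM untreated and 5.93, 1 and 1 TPM after DEN (-6.32 ± 1.07, adjusted p = 0.0211; -6.02 without replicate 3, adjusted p = 0.0325), the largest fall. AK144265 stood at 96.0, 78.3 and 59.7 TPM untreated and 13.6, 11.99 and 16.0 TPM after DEN (-2.39, adjusted p = 0.0218; -2.50 without replicate 3, adjusted p = 0.0210). Gm12718 stood at 15.5, 21.4 and 18.0 TPM untreated and 2.44, 4.51 and 1 TPM after DEN (-2.51, adjusted p = 0.00460; -2.14 without replicate 3, adjusted p = 0.00280). AB343393 and AB343394 hold identical values, at the floor untreated and 9.95, 8.13 and 13.9 TPM after DEN (2.52, adjusted p = 0.00133; 2.32 without replicate 3, adjusted p = 0.00213), so they count as 1 observation. Among protein genes, Cep85, which encodes a centrosomal protein, stood at 95.5, 42.1 and 198 TPM untreated and 908, 532 and 591 TPM after DEN (2.81, adjusted p = 0.0257; 2.89 without replicate 3, adjusted p = 0.0285). The ferritin receptor gene Scara5 stood at 1, 2.04 and 1.25 TPM untreated and 14.7, 8.60 and 4.42 TPM after DEN (1.97, adjusted p = 0.0178; 2.36 without replicate 3, adjusted p = 0.000720). The gene 2010003K11Rik stood at 4.47, 9.33 and 9.37 TPM untreated and 17.8, 46.8 and 77.6 TPM after DEN (2.31, adjusted p = 0.0483; 1.84 without replicate 3, adjusted p = 0.0616). The calls of AK220016, AK144265, Cep85, Scara5 and 2010003K11Rik ended without 1 or more of S302A_Ctrl replicates 1, 2 and 3, S302A_DEN replicates 1 and 3, WT_Ctrl replicates 1, 2 and 3 and WT_DEN replicates 1, 2 and 3 (limma adjusted p 0.0508 to 0.218).

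Some genes differed in DEN replicates 1 and 2 while replicate 3 lay with the untreated libraries. Fabp5, a fatty acid-binding protein of epidermis and macrophages, stood at 25.01, 22.6 and 27.0 TPM untreated and at 379.9, 193 and 25.8 TPM in DEN replicates 1 to 3. Moxd1, counted here among male-biased genes, was at the floor in untreated liver and at 54.6, 50.8 and 1.03 TPM after DEN. Without replicate 3 the differences were 3.40 (adjusted p = 0.000992) and 4.75 (adjusted p = 0.00805); over 6 libraries neither passed (adjusted p of 0.144 and 0.170). The chemokine gene Cxcl14 stood at 1, 1 and 1.96 TPM untreated and 25.9, 7.66 and 1.81 TPM after DEN (1.93, adjusted p = 0.129; 2.74 without replicate 3, adjusted p = 0.00561). Clec2h, a C-type lectin gene, stood at 20.3, 4.53 and 14.9 TPM untreated and 1, 1 and 5.55 TPM after DEN (-2.05, adjusted p = 0.129; -2.62 without replicate 3, adjusted p = 0.0418).

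**Figure D3:**
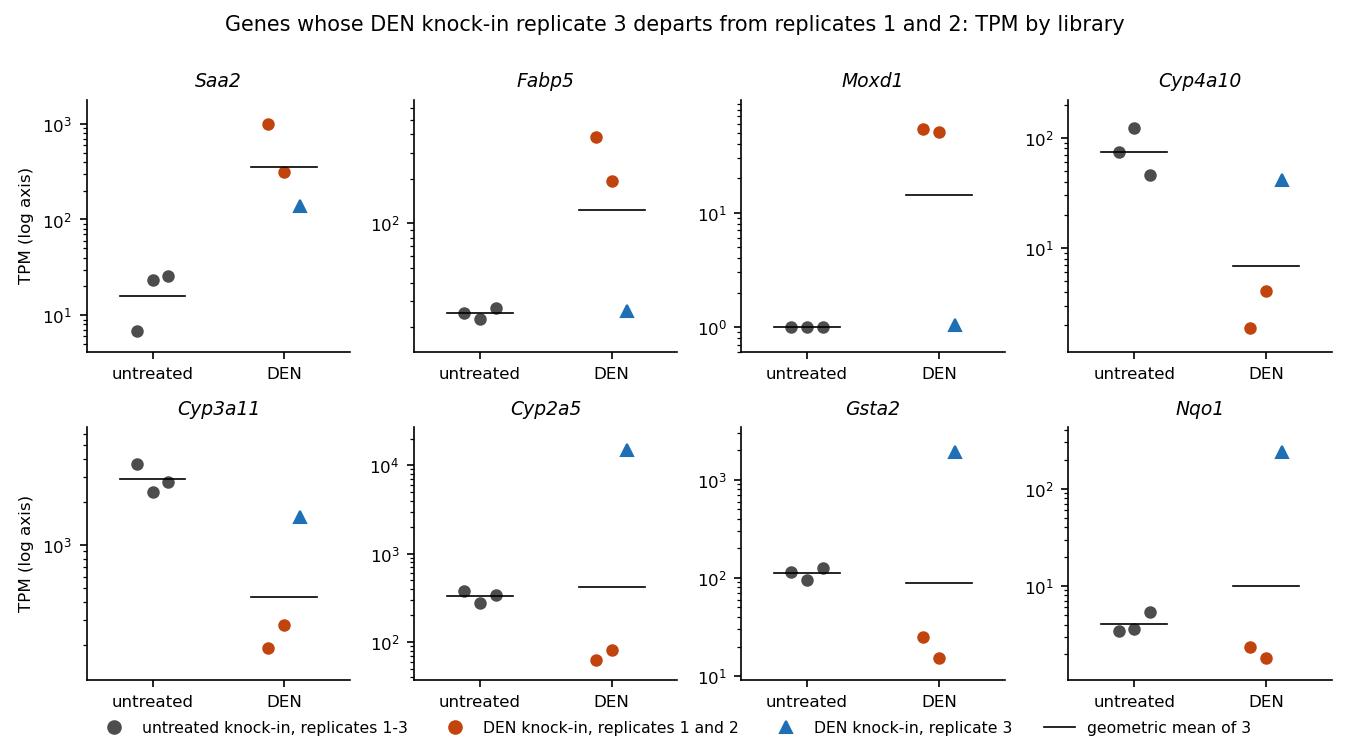
TPM on a log axis for 8 genes in untreated replicates 1 to 3 and DEN replicates 1 and 2 (circles) and DEN replicate 3 (triangle), with bars at the geometric mean of 3 libraries. Fabp5 and Moxd1 in DEN replicate 3 lie with the untreated libraries, and Cyp2a5, Gsta2 and Nqo1 lie below them in DEN replicates 1 and 2 and above them in replicate 3.

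DEN replicate 3 taken alone held high levels of xenobiotic and antioxidant enzymes, given here as a description of 1 library with no test. Cyp2a5, the coumarin hydroxylase, stood at 15026 TPM, against 62.0 and 80.6 in DEN replicates 1 and 2 and 376, 278 and 341 untreated. So the other DEN libraries lay under the untreated ones and this one far over them. Gsta1, Gsta2 and Gstm3 encode glutathione S-transferases, which detoxify reactive compounds. Gsta1 stood at 3612 TPM, against 14.3 and 1.69 in the other DEN libraries and 4.07, 9.62 and 15.8 untreated. Gsta2 stood at 1905 TPM, against 24.9 and 15.2 and 116, 95.9 and 126. Gstm3 stood at 6641 TPM, against 75.0 and 56.7 and 68.5, 92.1 and 91.3. For all 3 this library lay far above the other 5, while Gsta2 was lower in the other DEN libraries than untreated. Slc7a11, the cystine transporter, stood at 132 TPM against 1.03 and 1, and Maoa, monoamine oxidase A, at 371 against 2.33 and 1.77. NRF2 is a transcription factor that turns on antioxidant enzymes. All 22 of its targets tested stood higher here than in the other pair of DEN libraries, beside 88.1% of all genes. Their median log2 gap was 2.995, beside 0.80 for all genes. With all 6 libraries 20 of the 22 were higher (median 0.87), beside 79.5% of all genes (median 0.28), and none was called. Without DEN replicate 3, 15 were lower (median -0.12) and 2 were called downward, beside 1.39% of all genes. Gsta2 was among the 2 (-2.46, limma adjusted p = 0.0129).

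The same library was low in many male-biased genes. Mup12, a major urinary protein gene, stood at 52.8 TPM against 3709 and 2586 in DEN replicates 1 and 2 and 7994, 4085 and 9072 untreated. Mup7 stood at 540.1 TPM, against 26460.0 and 31799 and 27692, 23939 and 53541. Major urinary protein genes are near-identical copies, so single members are uncertain. Serpina3c, a serine protease inhibitor gene, was at the floor in this library, against 94.9 and 46.8 TPM. DEN replicate 3 was the lowest of the 3 DEN libraries for 25 of 31 male-biased genes, beside 622 of all 11411 genes. The median gap was -1.93, beside 0.80 for all genes. The list's median difference after DEN was -0.25 over 6 libraries and 0.30 without replicate 3, with 4 called upward, beside 1.4% of all genes.

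**Figure D4:**
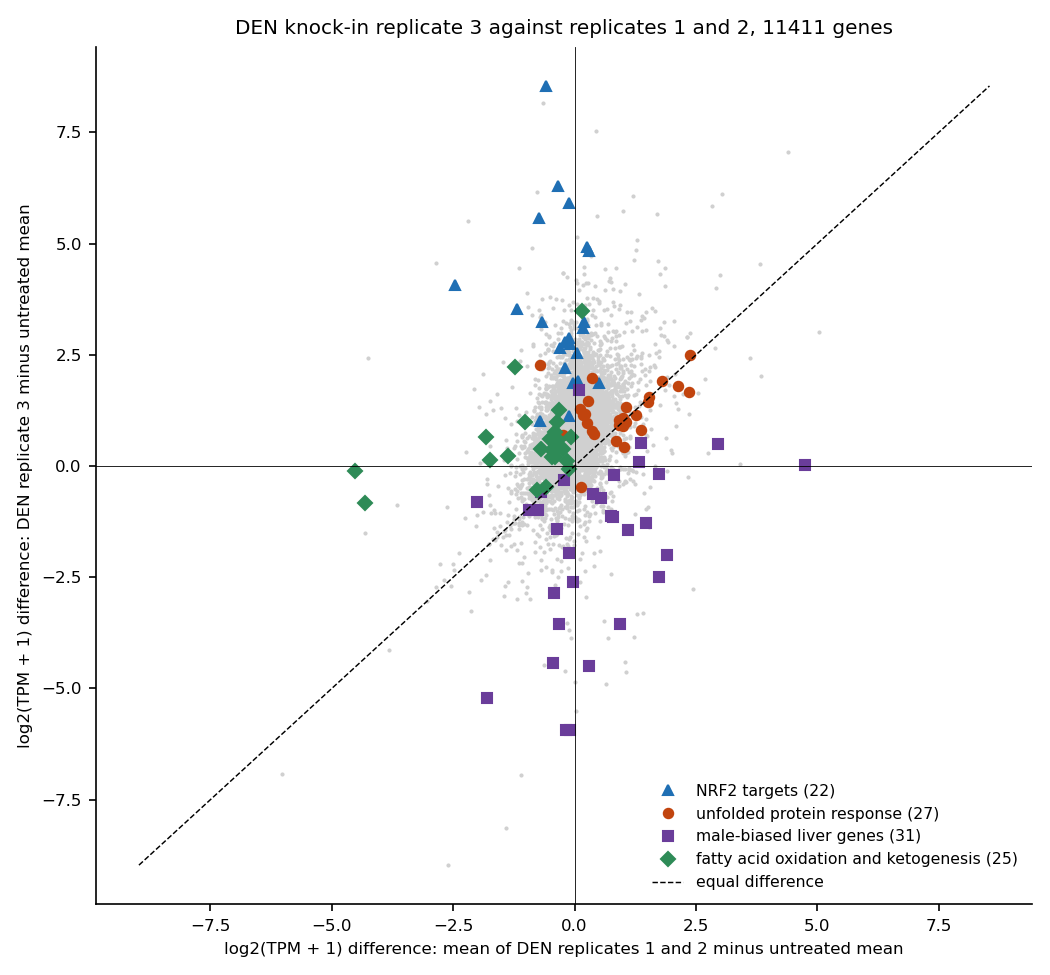
Difference from the untreated mean on the log2(TPM + 1) scale for 11411 genes, in the mean of DEN replicates 1 and 2 (horizontal) and in DEN replicate 3 (vertical), with 4 gene lists marked. NRF2 targets lie above the line of equal difference and most male-biased genes below it, while unfolded protein response genes with the largest differences lie near it.

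The DEN effect was compared between genotypes as an interaction. It passed for 7 of 11411 genes (0.0613%), which were AB343393, AB343394, Gvin1, AK220016, Cyp2b10, Rpph1 and Snord12. Gvin1 stood at 2.00, 2.17 and 1.77 TPM in WT_Ctrl and 1.91, 1.10 and 1.08 in WT_DEN, values that overlap (interaction 2.14, adjusted p = 0.00779). Cyp2b10 stood at 4.70, 7.29 and 7.22 TPM in WT_Ctrl and 10.8, 15.1 and 12.1 in WT_DEN, where the 3 DEN libraries were the higher ones (interaction -2.75, adjusted p = 0.0182). Snord12, a small nucleolar RNA, stood at 2.22, 1 and 1.38 TPM untreated and 5.67, 9.66 and 5.43 after DEN in the knock-in, and at 8.78, 2.24 and 4.14 in WT_Ctrl and 1, 1 and 1 in WT_DEN (interaction 3.08, adjusted p = 0.0496). Rpph1 stood at 2.15, 1.03 and 1 TPM in WT_Ctrl and 1.87, 1 and 1.09 in WT_DEN, near the floor in all 6 wild-type libraries. AK220016 stood at 1.90, 1 and 93.3 TPM in WT_Ctrl and 244, 557 and 336 in WT_DEN, opposite in direction to the knock-in. AB343393 and AB343394 stood at 12.8, 4.85 and 7.69 TPM in WT_Ctrl and at the floor in WT_DEN, again opposite. With DEN replicate 3 left out, the interaction passed for 75 genes, those 7 among them. Its count was 4 without any 1 of WT_Ctrl replicate 1, S302A_Ctrl replicate 2, WT_DEN replicate 2 and WT_DEN replicate 3, and 11 without WT_Ctrl replicate 3.

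Most genes called in the knock-in showed no difference by genotype that passed, which does not show that the effects were equal. Of the 94, 6 did pass, beside 0.0613% of all genes. The sign was the same in wild type for 69 of the 94, and 6 were also among the 15 called there. The median gene was higher after DEN in both genotypes, by 0.28 in the knock-in and 0.14 in wild type. The share of all genes with the same sign in both was not counted. Apoa4, Cdkn1a, Nfil3 and Zbtb16 rose in both genotypes, whereas AB343393 and AB343394 fell in wild type. Cdkn1a changed by 2.86 in wild type and 3.27 in the knock-in, and Apoa4 by 3.89 and 3.21. Spp1 differed by -0.05 in wild type against 2.20 in the knock-in, but its interaction of 2.25 had an adjusted p of 0.168. For Hspa5 the values were 0.35 and 1.496, with an interaction adjusted p of 0.667. Inmt differed by 0.86 in wild type and fell by 2.23 in the knock-in (interaction adjusted p = 0.0633; 0.0260 without DEN replicate 3). For Tff3 the wild-type difference was 1.11 (interaction adjusted p = 0.454).

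**Figure D5:**
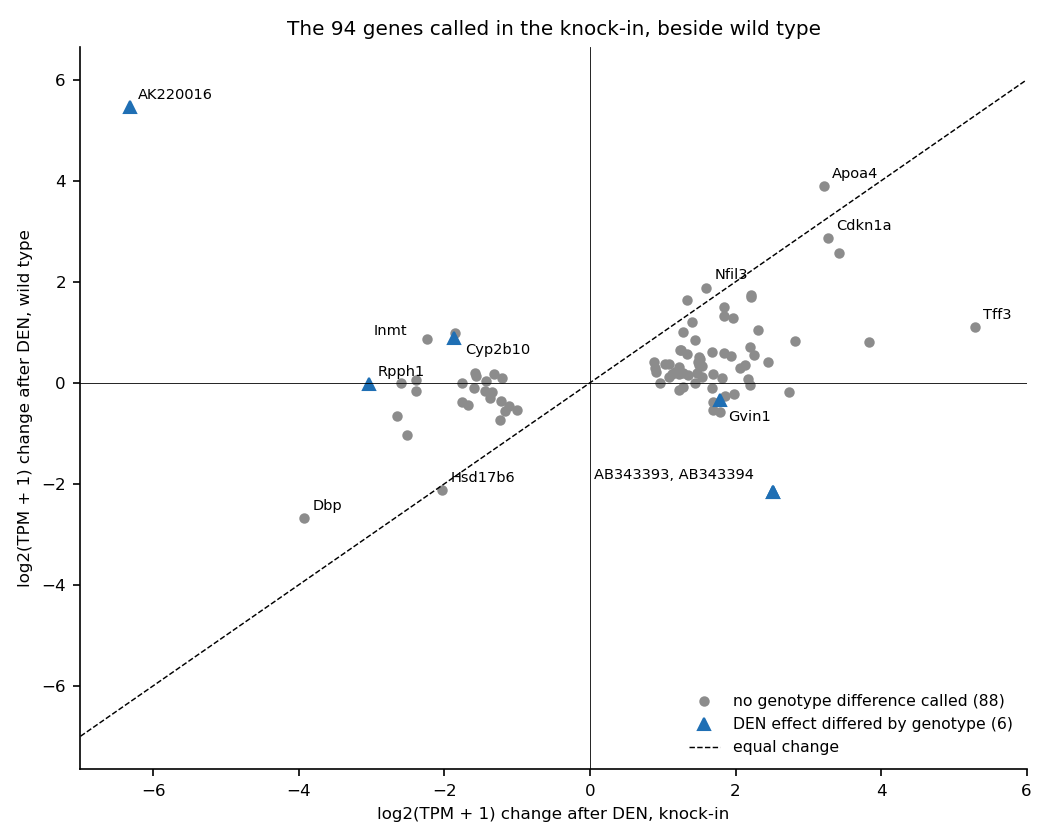
Change after DEN on the log2(TPM + 1) scale in the knock-in (horizontal) and wild type (vertical) for the 94 genes called in the knock-in. Triangles mark the 6 whose DEN effect also differed by genotype, and Apoa4 and Cdkn1a lie near the line of equal change.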

How the data were processed

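RNA sequencing of mouse liver gave 12 libraries in 4 groups of 3. The authors quantified transcripts with kallisto against mm10, per the submitters' processing notes, and deposited TPM per gene symbol with a floor of 1. The kallisto version and the annotation are not given in the sources used here, and TPM hold no read counts, so depth is unknown and precision rests on 3 libraries a group. Genes above 1 TPM in at least 3 of the 6 knock-in libraries were kept. log2(TPM + 1) values of all 12 libraries were fitted with limma 3.58.1 in R 4.3.3, with 1 mean per group (8 residual degrees of freedom), moderation with a mean-variance trend, two-sided tests and Benjamini-Hochberg adjustment over all kept genes at 0.05. The procedure was tested on simulated data, with means and spreads taken without DEN replicate 3. Those data held no outlying library and no shift of most genes, so that test does not cover either. Fold changes on this scale understate those of low genes.

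Named genes are the 12 largest rises and 12 largest falls among the calls without overlap and with a mean of at least 5 TPM in the higher group, over 6 libraries and without DEN replicate 3. To these come Celf1, Psmd10, up to 4 members of each gene list with the smallest p, the 12 genes each way farthest from the other DEN libraries in replicate 3 (at least 20 TPM in the higher), and the interaction genes. Clec4f and the genes of the closing observations were added after their values were seen. A few listed genes are not reported here by name. The 47 gene lists, the comparison and its rule were chosen with earlier results of these data known. Positions are from GENCODE M21 and promoter windows from RefSeq, both on GRCm38. Counts of genes with near-identical copies (Mup, Cyp2a, Cyp2b, Cyp2c, Cyp4a, Ces1, Gst, Saa) are uncertain. Same-numbered untreated and DEN libraries did not deviate together (Pearson r of 0.003, -0.016 and 0.059), so the numbers pair nothing. Alternatives were other pseudocounts, filters, scalings, weights, moderation, a replicate block, the knock-in libraries alone, and leaving out each library.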

Additional observations from a re-analysis of the deposited data

Results flagged for a closer look

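The DEN effect differed by genotype in 7 genes by limma's interaction test over 11411 genes, given as knock-in minus wild type on the log2 scale. The differences were 4.67 for AB343393 and for AB343394, whose values are identical, 2.14 for the GTPase gene Gvin1, 3.08 for the nucleolar RNA Snord12, -11.78 for AK220016, -2.75 for the cytochrome gene Cyp2b10 and -3.002 for Rpph1, the RNA of RNase P. The DEN difference was opposite in sign in the 2 genotypes for every one of these genes but Rpph1. In wild type alone it passed only for AB343393 and AB343394 (limma adjusted p = 0.0129). For Snord12 it passed in neither genotype (limma adjusted p = 0.0523 in the knock-in and 0.193 in wild type). Groups of 3 libraries are too small for a test of single outlying samples.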

How the results depend on the processing

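The number of genes called for DEN in the knock-in was 94 and ranged from 18 to 554 when 1 library was left out. It was 4 with no filter on low values, 17 with the knock-in libraries alone, 694 with median-of-ratios scaling, 743 with quantile normalization and 1756 with array quality weights. Leaving out DEN replicate 3 as well gave 875 with median-of-ratios scaling and 183 with the knock-in libraries alone. The interaction count was 7 and ranged from 4 to 75 when 1 library was left out. It was 4 with no filter, 12 with median-of-ratios scaling, 546 with array quality weights, and 103 with median-of-ratios scaling without DEN replicate 3. Array quality weights gave DEN replicate 3 a weight of 0.0522. The replicate block gave 83 calls, 57 higher and 26 lower, of which 72 were among the 94, and 8 for the interaction.

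Of the values of single genes under these alternatives, 4643 kept direction and side of the threshold, 311 lost the call, 275 gained one and 5 reversed. Cyp2a5 stood at 0.37 over 6 libraries but at -2.20 without DEN replicate 3, with a range of -2.20 to 1.75 over the left-out libraries. It was -2.24 with array quality weights, -2.21 with scaling and without that library, and -2.20 with the knock-in alone and without it. Maoa stood at 1.54 and at -0.79 with scaling and without DEN replicate 3. In both genes 1 library held the high values; for the other changes the cause was not tested. With a floor of 1 TPM and no read counts, differences among values at or below 1 TPM are not visible, and the counting error behind low values is unknown.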

Other observations

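Further genes of the secretory pathway were among the 94 called in the knock-in; they were chosen for mention after their values were seen. Fkbp11, a prolyl isomerase of the ER, stood at 11.02, 13.9 and 17.1 TPM untreated and 32.5, 44.4 and 85.5 TPM after DEN (1.78, limma adjusted p = 0.0252; 1.40 without DEN replicate 3, adjusted p = 0.0129). Pdia5, a protein disulfide isomerase, stood at 23.2, 24.2 and 27.0 TPM untreated and 49.8, 42.8 and 48.4 TPM after DEN (0.89, limma adjusted p = 0.0415; 0.87 without replicate 3, adjusted p = 0.0157). Rpn1, a subunit of the oligosaccharyltransferase that glycosylates new ER proteins, stood at 26.8, 32.3 and 26.0 TPM untreated and 54.7, 46.3 and 62.6 TPM after DEN (0.91, limma adjusted p = 0.0493; 0.81 without replicate 3, adjusted p = 0.0252). In all 3 genes the groups did not overlap.

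Other called genes, also chosen after their values were seen, belong to signalling and amino acid synthesis. Fst, which encodes follistatin, a secreted inhibitor of activin, stood at 1, 1 and 1.91 TPM untreated and 5.49, 3.36 and 3.24 TPM after DEN (1.121, limma adjusted p = 0.0326; 1.23 without replicate 3, adjusted p = 0.0118). Psph, the last enzyme of serine synthesis, stood at 3.08, 3.83 and 3.14 TPM untreated and 8.38, 9.05 and 18.0 TPM after DEN (1.49, limma adjusted p = 0.0280; 1.16 without replicate 3, adjusted p = 0.00894). Fgfr2, a fibroblast growth factor receptor, stood at 17.2, 9.33 and 12.7 TPM untreated and 5.30, 4.503 and 4.67 TPM after DEN (-1.24, limma adjusted p = 0.0326; -1.22 without replicate 3, adjusted p = 0.0199).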
